A study of Drosophila melanogaster with 12 samples.

Results

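The fly's compound eye owes its brown and red colours to a set of genes whose mutants gave them their names. The 9 genes described here were taken by their FlyBase CG numbers: the transporter genes w (white), st (scarlet) and bw (brown), the ommochrome enzyme genes v (vermilion) and cn (cinnabar), and the pteridine enzyme genes Pu (Punch), pr (purple), se (sepia) and ry (rosy). All 9 were found among the 13760 genes of the table, and 8 of them, all but cn, were among the 6552 whose mean reached 10 normalized reads, the level required for testing. A normalized read is a read multiplied by 1 scaling factor per library, and 1 transcript row, that with the highest mean, stands for each gene.

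RNA of heads of Drosophila melanogaster in a Canton-S strain background was sequenced at the poly(A) end after 18 h on 0, 25, 50 or 100 percent sucrose, as the labels give it. At each concentration 2 libraries were labelled cabut RNAi, from flies carrying the driver Tim-gal4 together with a UAS-cbt RNAi transgene, and 1 was a control from flies carrying the UAS-cbt RNAi transgene (cbtE1) over a wild-type chromosome, without the driver. All 12 libraries thus came from flies with a UAS-cbt RNAi transgene, and the driver, which uses the promoter of the clock gene timeless, was in the 8 labelled cabut RNAi (RNAi-labelled libraries below). The labels give no age, sex or eye-colour alleles, do not say which marker genes the transgenes carry, and do not say whether libraries came from separate groups of flies, so the spread behind each p-value is that of these 12 libraries and could be technical.

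Eye pigment lies in granules related to lysosomes, in the pigment cells that sheathe each ommatidium and in the photoreceptors. Brown ommochromes are made from tryptophan, which Vermilion, a tryptophan dioxygenase, and Cinnabar, a kynurenine monooxygenase, convert in steps. Red drosopterins and related pteridines are made from GTP by Punch (GTP cyclohydrolase), Purple (pyruvoyl tetrahydropterin synthase) and Sepia, an omega-class glutathione transferase, while Rosy (xanthine dehydrogenase) acts in pteridine and purine breakdown. White pairs with Scarlet to carry ommochrome precursors into the granule and with Brown to carry pteridine precursors. Most of this pigment is laid down in the pupa, so the adult head holds what the genes express afterwards.

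The libraries held 511487 to 1859284 reads, the fewest in the control at 100 percent sucrose. The targeted gene cbt did not check the labels: it held 102.2 to 201.6 normalized reads in the RNAi-labelled libraries and 93.5 to 139.3 in the controls (log2 fold change 0.38 ± 0.13, SE, limma adjusted p = 0.0539). Its value was above 0, the direction opposite to a knockdown, in each fit tried: over all concentrations it passed as higher in 5 of 13 alternatives and in 4 of 12 fits with 1 library left out (0.19 to 0.50), and over the concentrations with sucrose it passed as higher (0.42 ± 0.12, adjusted p = 0.0344), a call lost in 5 of 12 such fits (0.14, adjusted p = 0.628, without the control at 100 percent). Each direction below is therefore between labels. The 14 photoreceptor markers, summed, held 40572 to 46622 normalized reads in the RNAi-labelled libraries and 43151 to 48080 in controls, none of them at 0 in every library, with 3 of them higher and 3 lower by label. The 6 fat body markers held 26313 to 59493 and 53598 to 75828, with 2 higher (Lsp2 and to) and 3 lower. Most of that sum came from the 3 lower ones, the yolk protein genes Yp1, Yp2 and Yp3. The calls of Yp2 and of to were each lost in 8 of 12 fits with 1 library left out. The 5 glial markers held 1817 to 2225 and 1758 to 1869, with 2 higher. Over all genes tested, 6.78 percent were called higher and 8.71 percent lower. The part of these markers in the differences below was not tested.

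The first comparison, of labels over all concentrations, split the 9 genes. White RNA was higher in the RNAi-labelled libraries, by 3.13-fold. Brown, vermilion, sepia and rosy RNA was lower, by 1.63- to 3.22-fold, and no difference was detected for scarlet, Punch or purple. In the fit across all genes 1 of the 8 tested genes was higher and 4 were lower, beside 6.78 and 8.71 percent of all 6552 genes, or 15.5 percent in either direction (limma, Benjamini-Hochberg adjusted p under 0.05). The 9 genes were chosen by their role in eye pigment and on earlier results of these same label differences, in which w and se separated the labels, so w and se are given with no p. In w, bw, v and se no library of one label reached into the range of the other, as in 8.17 percent of all genes tested. Since w and se were among the values that chose the genes, nothing is read from either count.

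**Figure D1:**
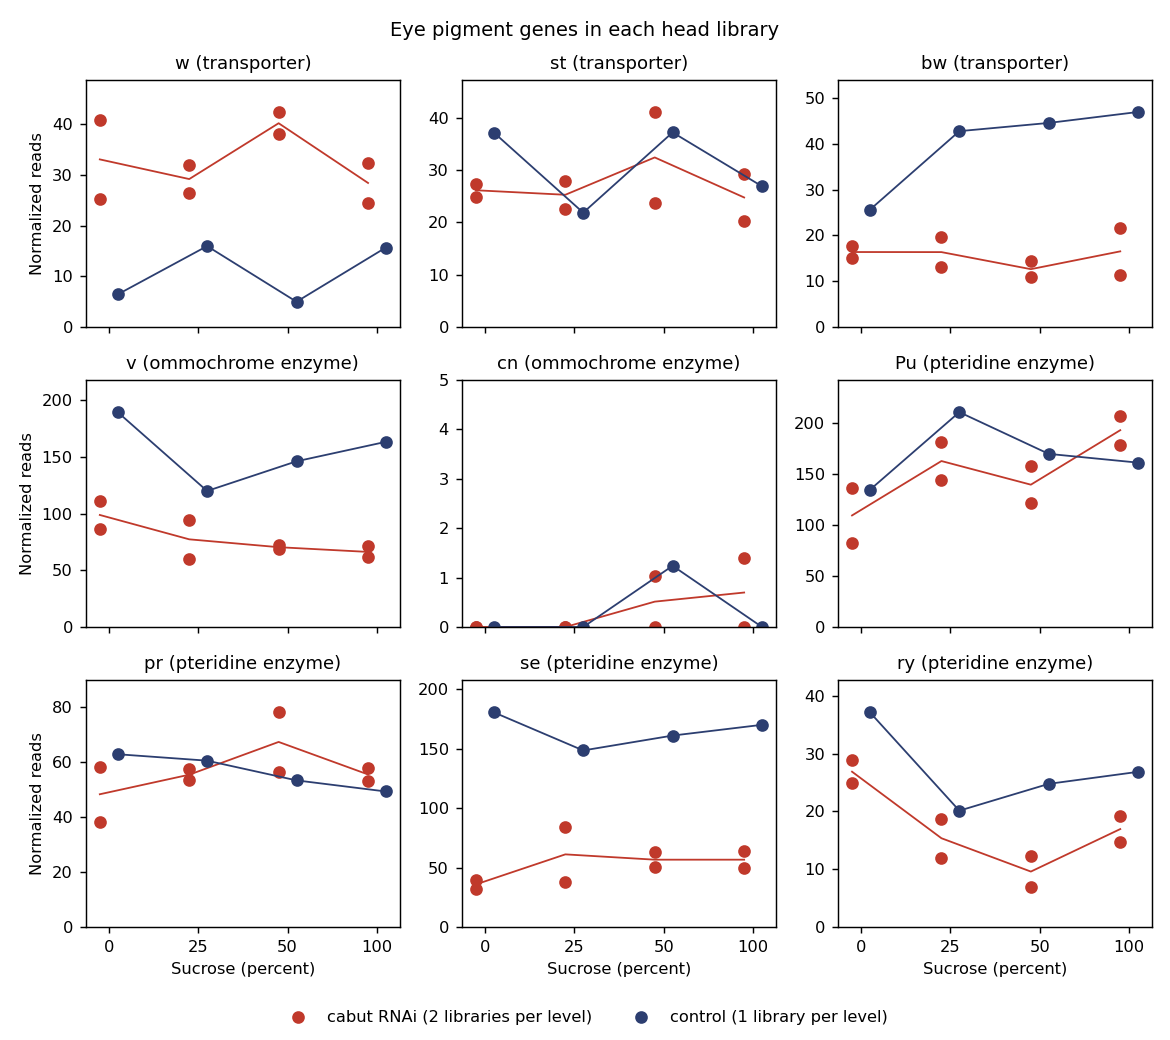
Normalized reads of each of the 9 genes (y axis, 1 scale per panel from 0) against sucrose in percent (x axis, evenly spaced levels); points are libraries and lines join the means of each label. The 8 red points of w lie above its 4 blue points, those of bw, v and se lie below theirs, and cn has 4 reads in all.

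White (w, CG2759, transcript CG2759-RA, chromosome X, 2684632 to 2690499 on the minus strand, build dm3) encodes the shared partner of both pigment transporters. Its values in the 8 RNAi-labelled libraries ran from 24.4 to 42.4 normalized reads, with a median of 32.2. The controls held 6.40 at 0 percent sucrose, 15.9 at 25, 4.96 at 50 and 15.7 at 100 percent. The lowest RNAi-labelled library therefore lay above the highest control, and the controls themselves fell into a low pair and a higher pair. The group means were 32.7 ± 7.10 (SD, n = 8) and 10.7 ± 5.88 (SD, n = 4). As description, the fitted log2 difference was 1.65 ± 0.27 (SE), with a 95 percent interval from 1.09 to 2.20 on the log2(value + 1) scale. The interval makes no allowance for the choice of w on these values.

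The control values of w rest on few reads: 5, 19, 4 and 7 in order of concentration, against 34 to 53 in each RNAi-labelled library. At 0 and 50 percent the exact Poisson interval of the control (up to 14.9 and 12.7 normalized reads) ended below those of both RNAi-labelled libraries, which began at 18.7 and 26.7. At 25 percent the control's interval of 9.60 to 24.9 reached into the other 2, and at 100 percent its interval of 6.30 to 32.3 did so too. These intervals cover counting error only. The ratio of the label means was accordingly 5.16 and 8.12 at 0 and 50 percent sucrose, but 1.83 and 1.81 at 25 and 100 percent. Over the concentrations with sucrose the log2 difference was 1.47 ± 0.21 (SE), and without the control at 50 percent it was 0.82. Reads from the gene and from a w marker on a transgene cannot be told apart in these values. The deposited table's own annotation names this row Wrinkled, a gene whose symbol differs from w only in capitalisation, and the identity used here is that of its CG number.

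**Figure D2:**
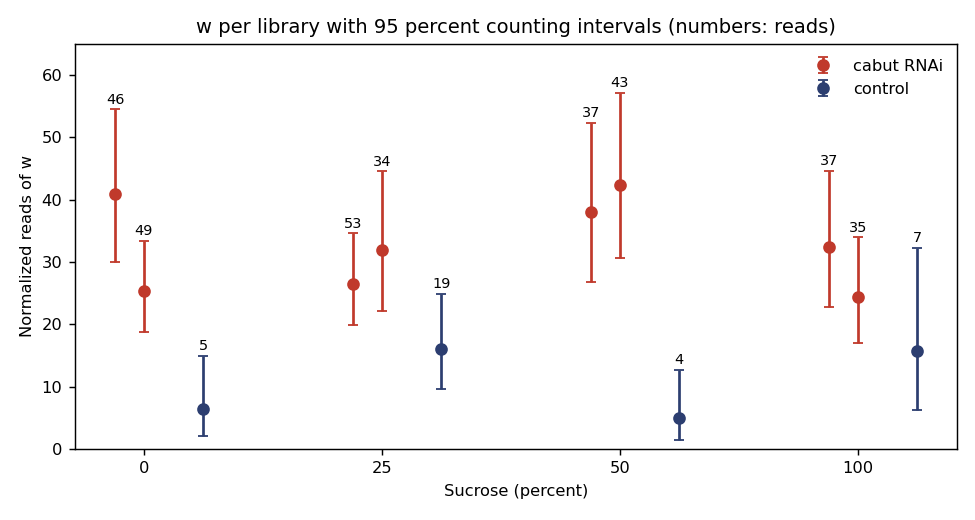
Normalized reads of w (y axis) in each library by sucrose in percent (x axis), with exact 95 percent Poisson intervals as bars and the number of reads above each. Control bars at 0 and 50 percent lie wholly below those of the RNAi-labelled libraries, and at 25 and 100 percent they overlap.

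Brown (bw, CG17632, CG17632-RA, chromosome 2R, 19415328 to 19426016, minus strand), the partner of White for pteridine precursors, went the other way. It held 10.9 to 21.6 normalized reads in the RNAi-labelled libraries, with a median of 14.7. The controls held 25.6, 42.8, 44.6 and 47.0 at 0, 25, 50 and 100 percent sucrose. The highest RNAi-labelled library was below the lowest control, which was that at 0 percent. The fitted difference was a 2.49-fold lower level (log2 fold change -1.32 ± 0.22, SE, limma adjusted p = 0.00022), and it stayed past the threshold whichever of the 12 libraries was left out. At 0 percent alone the log2 difference was -0.62 ± 0.42 (adjusted p = 0.485), and over the concentrations with sucrose it was -1.55 ± 0.24 (adjusted p = 0.00117). The test of that change of difference did not pass (-0.93 ± 0.48, adjusted p = 0.532). The second brown transcript row of the table was at 0 in every library, and the gene overlaps mi on the opposite strand, which held 3.75 to 11.6 normalized reads.

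Scarlet (st, CG4314, CG4314-RA, chromosome 3L, 16490755 to 16493563, plus strand), the partner of White for ommochrome precursors, did not separate the labels. It held 20.1 to 41.1 normalized reads in the RNAi-labelled libraries, with a median of 26.1. The controls held 37.1, 21.8, 37.2 and 26.9 in order of concentration, so the ranges overlapped nearly whole. The fitted log2 difference was -0.17 with a 95 percent interval from -0.55 to 0.21 (limma adjusted p = 0.605), an interval that does not reach the value of bw. Scarlet overlaps CG32158, which was higher (0.38 ± 0.12, adjusted p = 0.0373, a call lost in 8 of 12 fits with 1 library left out). The use of strand in counting is not given in the sources used here, so reads of overlapping genes could not be told apart. The fitted values of the 3 transporter genes, whose proteins work as pairs, thus lay at 3 different places in the comparison of labels. That of w helped choose the genes and is description.

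Vermilion (v, CG2155, CG2155-RA, chromosome X, 10818023 to 10819671, plus strand), the tryptophan dioxygenase that opens the ommochrome pathway, was lower in the RNAi-labelled libraries. These held 59.9 to 111 normalized reads with a median of 71.6, and the controls held 189.5, 120.0, 146 and 163 in order of concentration. All 8 were below all 4. The difference was 1.98-fold (log2 fold change -0.99 ± 0.13, SE, limma adjusted p = 2.25e-05) and was past the threshold whichever of the 12 libraries was left out. It had the same direction at each concentration, from -0.66 on the log2 scale at 25 percent to -1.29 at 100 percent. These rest on 67 to 168 reads per library, so the counting error of about 10.2 percent within the RNAi-labelled libraries was below their coefficient of variation of 22.8 percent.

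Cinnabar (cn, CG1555, CG1555-RA, chromosome 2R, 3670302 to 3672711, minus strand), the kynurenine monooxygenase of the same pathway, was nearly without reads. There was 1 read in the first RNAi-labelled library at 50 percent sucrose, 2 in the second at 100 percent and 1 in the control at 50 percent. The other 9 libraries had 0, which allows up to 3 reads, or up to 6.71 normalized reads in the shallowest library. No difference between labels or concentrations can be drawn from 4 reads. The other ommochrome genes, chosen as a list, were KFase (kynurenine formamidase), kar (karmoisin) and cd (cardinal). Neither of the 2 tested passed between labels, beside 15.5 percent of all genes. KFase was at -0.42 ± 0.15 (limma adjusted p = 0.0754) and kar at 0.21 ± 0.22 (adjusted p = 0.589). The gene cd was too low to test at 0.876 to 7.19 normalized reads.

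**Figure D3:**
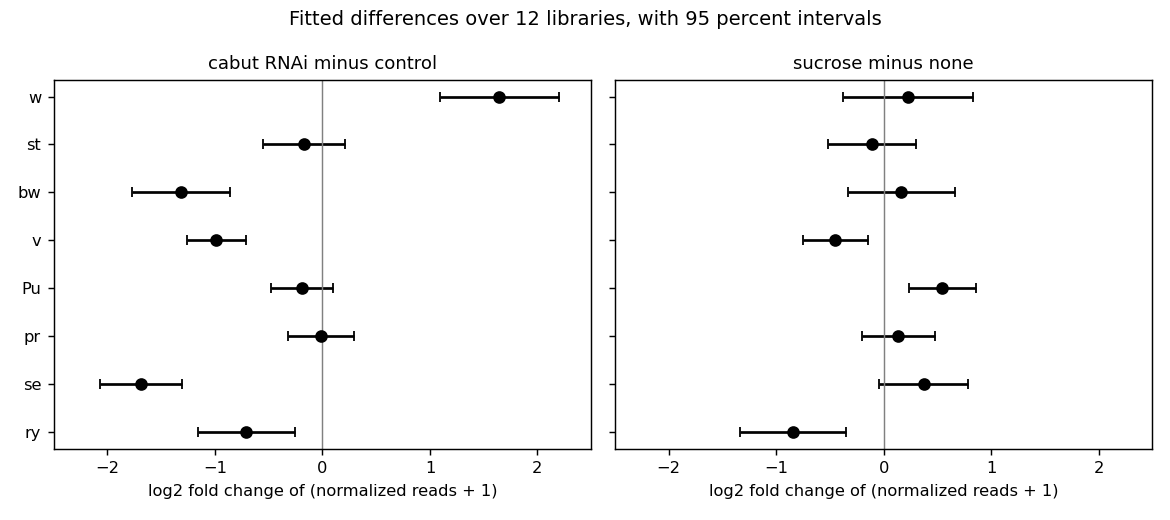
Fitted log2 fold change of (normalized reads + 1) for the 8 tested genes (x axis) with 95 percent intervals, between labels (left) and between sucrose and none (right), over 12 libraries. On the left w lies at 1.65 and bw, v, se and ry lie below 0. The left intervals of w and se make no allowance for their part in choosing the genes. On the right no gene passed the adjusted threshold, and the intervals of v, Pu and ry do not reach 0.

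Sepia (se, CG6781, CG6781-RA, chromosome 3L, 8513652 to 8514596, plus strand), which makes a precursor of the red drosopterins, had the widest gap of the pteridine genes. The RNAi-labelled libraries held 32.0 to 84.5 normalized reads, with a median of 49.9. The controls held 180.6, 149, 161 and 170.1 in order of concentration. Every RNAi-labelled library was below every control, and the controls lay close together. As description, with no allowance for the choice of se on these values, the 95 percent interval ran from -2.07 to -1.31. The log2 difference itself was -1.69 ± 0.18 (SE), a 3.22-fold lower level. At 0 percent sucrose, where the RNAi-labelled libraries held 40.0 and 32.0, it was -2.30 ± 0.37, and over the concentrations with sucrose it was -1.48 ± 0.21. The change of difference did not pass (0.82 ± 0.42, limma adjusted p = 0.53). GstO2, which overlaps sepia on the opposite strand, was at -0.11 ± 0.12 (adjusted p = 0.631).

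The sepia protein belongs to the omega glutathione transferases, whose other genes lie beside it. Of the 3 others measured (GstO1, GstO2 and GstO3) none passed between labels, beside 15.5 percent of all genes. Their log2 differences ran from -0.11 to 0.24. Their summed level was 161.7 to 209.4 normalized reads in the RNAi-labelled libraries and 162 to 179 in the controls, ranges that overlap. The listed name GstO4 is a synonym of sepia and was not counted again. Within 50 kb of the gene 9 genes were tested and none was called.

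Rosy (ry, CG7642, CG7642-RA, chromosome 3R, 8858259 to 8863748, plus strand), the xanthine dehydrogenase, was lower by a smaller and less stable amount. It held 6.91 to 28.9 normalized reads in the RNAi-labelled libraries with a median of 16.7, and 37.1, 20.1, 24.8 and 26.9 in the controls. The labels overlapped, since both RNAi-labelled libraries at 0 percent (24.9 and 28.9) lay above the control at 25 percent. The fitted log2 difference was -0.71 ± 0.22 (SE), a 1.63-fold lower level (limma adjusted p = 0.0305). The call did not hold in 5 of the 12 fits with 1 library left out: without the first RNAi-labelled one at 0 percent (adjusted p = 0.0505), the first at 25 percent (0.0581), the second at 100 percent (0.0555), the control at 50 percent (0.207) and that at 100 percent (0.0852). It was also lost with no filter (0.0602), with DESeq2 (0.0997) and without the sucrose term (0.115).

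Punch and purple, which catalyse the opening steps of the pteridine pathway, did not separate the labels. Punch (Pu, CG9441, CG9441-RA, chromosome 2R, 17066624 to 17070121, plus strand) held 82.6 to 207 normalized reads in the RNAi-labelled libraries, with a median of 151, and 134, 210.6, 169.7 and 161 in the controls. Its log2 difference was -0.19 with a 95 percent interval from -0.47 to 0.10 (limma adjusted p = 0.406). Purple (pr, CG16784, CG16784-RB, chromosome 2L, 20073714 to 20075222, minus strand) held 38.2 to 78.0, and 62.8, 60.4, 53.3 and 49.2 in the controls. Its log2 difference was -0.01 with an interval from -0.32 to 0.30 (adjusted p = 0.964). Both intervals lie wholly above those of bw and v. Purple overlaps bwa on the opposite strand, which was at -0.02 ± 0.15.

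Over all concentrations none of the other pteridine and molybdenum hydroxylase genes passed between labels. Of 11 listed, 10 were tested and none passed, beside 15.5 percent of all genes. The median log2 difference of the 10 was -0.13, beside 0.01 over all genes tested. They included Sptr (sepiapterin reductase, 0.04 ± 0.14), Dhpr (dihydropteridine reductase, -0.19 ± 0.12) and ras (raspberry, IMP dehydrogenase, -0.28 ± 0.11, adjusted p = 0.0908). The gene mal, whose product supplies the sulphur of the cofactor that Rosy needs, was at -0.48 ± 0.32 (adjusted p = 0.374). Over the concentrations with sucrose 1 of the 10 passed, beside 15.4 percent of all genes. This was ras, which was lower (-0.38 ± 0.10, limma adjusted p = 0.0256). It held 73.4 to 88.3 normalized reads in the RNAi-labelled libraries and 102.9 to 111.5 in controls. That call was lost in 5 of the 12 fits with 1 library left out: without the first RNAi-labelled one at 25 percent (0.0501) or at 100 percent (0.0665), or the control at 25 (0.118), 50 (0.066) or 100 percent (0.0644). It was lost too with no trend (0.0701) and with DESeq2 (0.831).

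The 3 markers of pigment and cone cells did not share a direction between labels. Pdh, a retinol dehydrogenase gene of pigment cells, held 1002 to 1481 normalized reads in the RNAi-labelled libraries and 2719 to 3196 in controls (-1.12 ± 0.09, limma adjusted p = 6.18e-08). The retinoid-binding protein gene pinta, also of pigment cells, was at -0.40 ± 0.16 (adjusted p = 0.0935), and the lens protein gene Crys, made by cone and pigment cells, was higher (1.29 ± 0.22, adjusted p = 0.000324). The 3 markers summed to 1096 to 1613 normalized reads in the RNAi-labelled libraries and 2780 to 3314 in controls, nearly all of it Pdh, and none was at 0. Over all concentrations 1 marker was thus lower, 1 higher and 1 not past the threshold. Over the concentrations with sucrose 2 were lower, Pdh (-1.10 ± 0.12, adjusted p = 7.93e-05) and pinta (-0.59 ± 0.15, adjusted p = 0.0207), and Crys was higher (1.29 ± 0.28, adjusted p = 0.00795). The pinta call with sucrose was lost without the control at 50 percent (0.161), with no filter (0.0614) and with DESeq2 (0.626). That of Crys with sucrose was lost without the control at 100 percent (0.0825), with no filter (0.104) and with robust limma (0.0717). In whole heads fewer cells of a type and less RNA per cell cannot be told apart, and the part of these cells in the differences of the pigment genes was not tested.

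Genes that build and move pigment granules were listed too. Of 15 listed, 13 were tested and 2 were higher in the RNAi-labelled libraries. Over all genes 6.78 percent were called higher and 15.5 percent in either direction, so nothing is read from this count. Rab32 (lightoid, a small GTPase of granule formation) was higher by 0.32 ± 0.09 on the log2 scale (limma adjusted p = 0.0122), with 259 to 327 normalized reads against 219 to 283 in controls, ranges that overlap. The call was lost without the control at 100 percent (0.0581) and with limma without the trend (0.0681). The adaptor subunit gene cm (carmine) was higher by 0.57 ± 0.19 (adjusted p = 0.0474), a call kept in 3 of the 12 fits with 1 library left out (the second RNAi-labelled one at 50 or 100 percent, and the control at 50 percent) and lost in the others, with adjusted p up to 0.195. The list's median was 0.22, beside 0.01 over all genes.

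White, scarlet and brown belong to the ABCG family of transporters, of which 10 other genes were listed and 9 tested. CG9664 was higher, with 14.6 to 25.3 normalized reads in the RNAi-labelled libraries and 6.71 to 10.2 in controls (1.09 ± 0.19, limma adjusted p = 0.000404), so its labels did not overlap. CG17646 was lower, with 93.8 to 144.5 against 129.8 to 171.6 (-0.42 ± 0.11, adjusted p = 0.00887), and lost the call without the control at 50 percent (0.0803). The other 7 did not pass, and the list's median was 0.05. Over all genes 15.5 percent were called in either direction, and nothing is read from the count of this list. Of the 4 genes often used as visible markers on fly transgenes (w, v, ry and y), w was higher and v and ry were lower, and y (yellow) was too low to test.

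**Figure D4:**
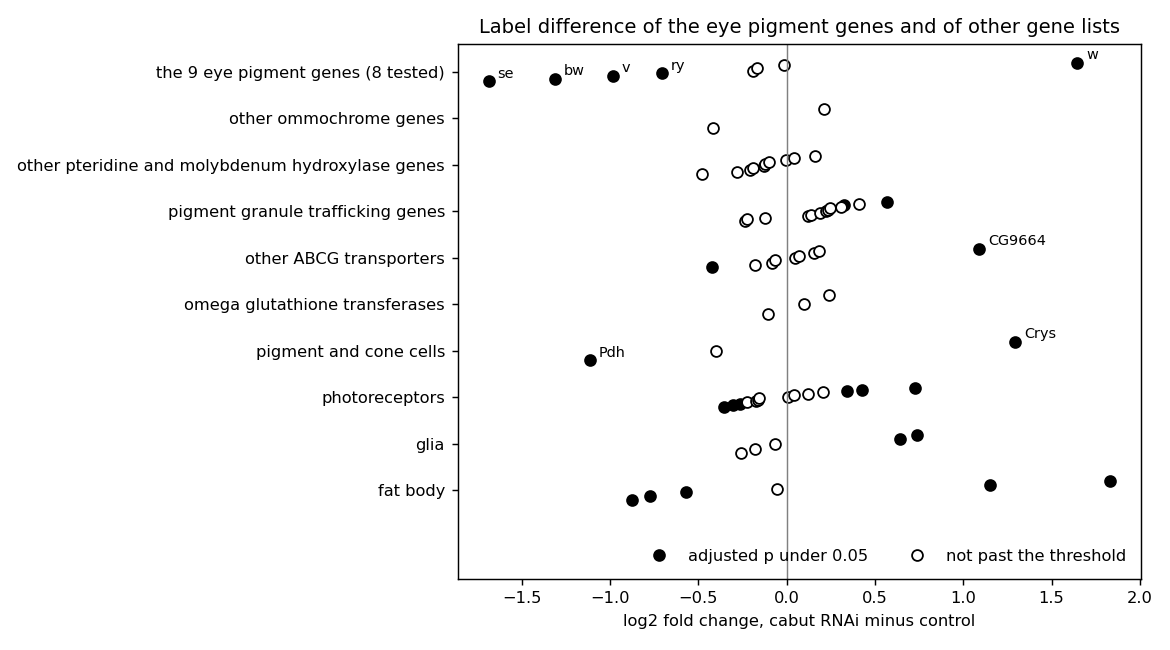
Fitted log2 fold change between labels (x axis) of each tested gene, by list (y axis); filled points passed the adjusted threshold of 0.05. The eye pigment genes spread from -1.69 (se) to 1.65 (w). These ends are values that helped choose the genes, so nothing is read from the spread. The other ommochrome, pteridine and omega glutathione transferase genes lie between -0.48 and 0.24 with no filled point.

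The label difference was also fitted without sucrose and with it. At 0 percent sucrose none of the 6 tested genes other than w and se was called, beside 3.28 percent of all genes, and over the concentrations with sucrose 3 were (bw, v and ry, all lower), beside 15.4 percent. The values of w and se in these fits are descriptions, and that of w at 0 percent was 2.16 ± 0.37, or 1.83 without the first RNAi-labelled library there. For rosy the call with sucrose (limma adjusted p = 0.0424) was lost in 8 of the 12 fits with 1 library left out, the highest adjusted p being 0.298, without the control at 50 percent. It was kept without the second RNAi-labelled library at 25 percent, the first at 50 percent, or the control at 0 or 25 percent, and was lost with no filter (0.122), quantile normalization (0.0542), no trend (0.0602), edgeR (0.0666) and DESeq2 (0.785). For vermilion the log2 difference at 0 percent was -0.94 ± 0.26 (adjusted p = 0.0712). It passed there with robust limma (0.0147), with edgeR (0.0405) and without either RNAi-labelled library at 25 percent. Each of these rests on 1 control library per concentration, assumed to vary like the other groups.

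Within 50 kb of the 8 tested genes lay 58 other tested genes, of which 5 were higher and 2 lower between labels, 12.1 percent of them, a share near the 15.5 percent of all genes. None was called around bw (9 genes, from -1.76 to 0.08 on the log2 scale, so 1 had a lower value than bw without passing), v (4, from -0.25 to 0.86) or se (9, from -0.28 to 0.31). Of 2 tested genes near w, Syx4, a syntaxin gene, was higher (0.69), and the other was at 0.07.

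Sucrose against none, averaged over 25, 50 and 100 percent in both labels, asked which of these genes respond to the sugar level. Punch RNA lay higher with sucrose and rosy and vermilion RNA lay lower, but none of the 8 passed the adjusted threshold, beside 2.15 percent of all genes (limma). At an unadjusted p under 0.05 there were 3 of 8, beside 11 percent of all genes. With edgeR 1 of the 8 passed (ry, adjusted p = 0.022), and with DESeq2 none did. The shares of all genes above are those of limma, and none is given here for edgeR or DESeq2. Nothing is therefore read from the counts of those tools.

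For Punch the RNAi-labelled libraries held 82.6 and 136 normalized reads without sucrose and 121 to 207 with it, and the controls held 134 without and 161 to 210.6 with it. The log2 difference was 0.55 ± 0.15 (SE, limma adjusted p = 0.0614). It passed with robust limma (0.0393) and with a replicate block in limma (0.0156). It also passed without the second RNAi-labelled library at 0 percent (0.0343), the first at 25 percent (0.0458) or the control at 100 percent (0.0309). Without the first RNAi-labelled library at 0 percent, the lowest of the 12, it was 0.33 (0.581).

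Rosy held 24.9 and 28.9 without sucrose and 6.91 to 19.3 with it in the RNAi-labelled libraries, so these did not overlap. The same gap, lower with sucrose, was seen in 6.12 percent of all genes tested, a share that leaves out genes higher with sucrose. The controls of rosy held 37.1 without sucrose and 20.1 to 26.9 with it. The log2 difference was -0.85 ± 0.24 (limma adjusted p = 0.0682), past the threshold with robust limma (0.048), without the second RNAi-labelled library at 25 percent (0.04) and without the control at 50 percent (0.0353). Vermilion held 86.6 and 111 without sucrose and 59.9 to 94.8 with it in the RNAi-labelled libraries, and 189.5 without and 120.0 to 163 with it in controls. Its log2 difference was -0.45 ± 0.14 (adjusted p = 0.139), and it passed in 1 fit, without the second RNAi-labelled library at 25 percent (0.02). The other 5 lay between -0.11 (st) and 0.37 (se), with adjusted p of 0.539 or above.

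Among libraries with sucrose no dose trend was detected. The slope per doubling of the percentage ran from -0.05 (pr) to 0.12 (ry) on the log2 scale over 9 libraries, and the widest 95 percent interval, that of w, ran from -0.38 to 0.34. No gene of 6552 passed (limma), 272 had an unadjusted p under 0.05 and none of these was among the 8, while edgeR called 6 genes and DESeq2 1.

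In the 8 RNAi-labelled libraries alone, the sucrose difference was 0.61 ± 0.18 for Pu (limma adjusted p = 0.162), 0.64 ± 0.25 for se (0.39), -0.96 ± 0.28 for ry (0.166) and -0.47 ± 0.18 for v (0.343). None of the 8 passed, beside 1.97 percent of all genes. At an unadjusted p under 0.05 there were 4, beside 10.2 percent of all genes. The difference of the responses between labels was not detected for any of the 8 (adjusted p of 0.53 or above), beside 0.229 percent of all genes. That test rests on 1 control library per concentration, assumed to vary like the other groups, and its intervals were wide: from -1.97 to 0.12 for bw and from -0.11 to 1.75 for se.

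**Figure D5:**
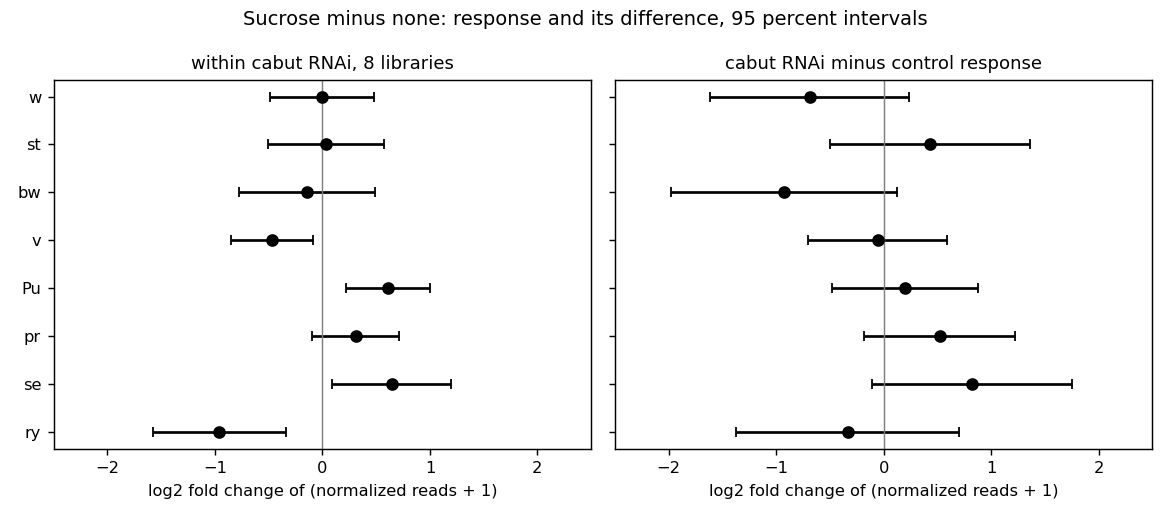
Log2 fold change of (normalized reads + 1) between sucrose and none (x axis) with 95 percent intervals for the 8 tested genes, within the 8 RNAi-labelled libraries (left) and as the difference of that response from the control response (right). On the left Pu and se lie above 0 and v and ry below it, none past the adjusted threshold; on the right every interval includes 0.

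Of the listed pteridine and molybdenum hydroxylase genes, Hn (Henna, phenylalanine hydroxylase, which uses the cofactor made from the products of Punch and Purple) fell with sucrose by 0.36 ± 0.09 on the log2 scale (limma adjusted p = 0.0235). It held 777.5 and 852 normalized reads without sucrose and 599 to 730.2 with it in the RNAi-labelled libraries, and 935 without and 637 to 787 with it in controls, so within each label the libraries did not overlap. The call was lost without any of 5 libraries: either RNAi-labelled one at 0 percent (adjusted p = 0.0527 and 0.12), the first at 50 percent (0.0564), the second at 100 percent (0.0517) or the control at 0 percent (0.172). It was lost as well with limma without the trend (0.231) and with a linear dose (0.158). None of the other listed ommochrome, pteridine, granule, ABCG or omega glutathione transferase genes passed.

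The genes were also compared by how they varied once the mean of each label was removed, as a description over 12 libraries that share depth and scaling. Among the 8 the highest correlation was between v and ry (r = 0.63), followed by Pu and pr (0.50), and the lowest was between v and Pu (-0.61). White had r of -0.52 with st and 0.09 with bw. With only 4 to 19 reads of w in each control library, these values cannot show whether White varies with its partners. For the 4 of them with means of 50 or more, the nearest of 2329 genes were Sc2 (0.92), Nurf-38 (0.89) and Etfb (0.88) for v, COX2 (0.94), HmgZ (0.91) and RpS3A (0.91) for Pu, twr (0.92), futsch (0.86) and Bbd (0.83) for pr, and Neb-cGP (0.95), COX6B (0.93) and ATPsynB (0.90) for se.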

How the data were processed

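One deposited table held, for each transcript, values the authors had scaled per library (unit signal, normalized read counts). Reads were mapped with TopHat and Bowtie to build dm3, per the submitters' processing notes; their versions and the use of strand were not given in the sources used here. Of the values in this deposited table, 100 percent were whole multiples of 1 step per library (tolerance 0.01), which gave back whole reads. The 21081 transcript rows were joined to genes by CG number (13536 of 14010 numbers matched a current symbol), keeping the row with the highest mean. Coordinates are 1-based; strands come from a later annotation matched by gene.

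Genes with a mean of at least 10 were tested with limma 3.58.1 with an intensity trend on log2(value + 1), Benjamini-Hochberg over all genes, threshold 0.05. Label and sucrose (4 levels) were fitted together over 12 libraries; the difference of responses and the label difference at 0 percent and with sucrose came from 8 group means. Intervals are 95 percent. Alternatives were pseudocounts of 0.5 and 5, a minimum mean of 50 or none, quantile or median-of-ratios scaling, limma robust or without trend, summed transcript rows, a replicate block, count tests on recovered reads (edgeR 4.0.16, DESeq2 1.42.0), dose as a line, no sucrose term, and each library left out. The tests were tried on simulated reads.

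The members, lists and tests were chosen with earlier results of these data known. Named were all 9 members, and from each list those past the threshold between labels or with sucrose (at most 4 by smallest p), with a few others (among them ras and pinta) chosen after their values were seen. Counting noise did not account for the spread between replicates (chi-square over degrees of freedom 2.73 to 5.75).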

Additional observations from a re-analysis of the deposited data

Results flagged for a closer look

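The brown value of the control library at 0 percent sucrose stood apart from the other 3 controls. It held 25.6 normalized reads (20 reads), against 42.8, 44.6 and 47.0. On the log2(value + 1) scale its gap to the nearest took 0.845 of the range of the 4. The limit was applied on that scale alone, not to the normalized reads themselves. Chance puts about 1 group in 20 past this limit, and 16 groups were looked at. The label difference of bw over the concentrations with sucrose, which leaves this library out, was -1.55 ± 0.24 on the log2 scale.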

How the results depend on the processing

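No direction reversed among called values. The label differences of bw and v were called under each alternative in which they were tested (-1.35 to -1.13 and -0.99 to -0.95). Those of w and se, which helped choose the genes, ran from 1.32 to 1.70 and from -1.70 to -1.61, as description. A minimum mean of 50 leaves 4 of the genes. Of these v was called between labels, over all concentrations and over those with sucrose. Pu and pr were not called, and se is description only. At 0 percent sucrose the label differences of w and se ran from 1.71 to 2.37 and from -2.34 to -2.19, again as description. Of the other tested genes only v passed there under an alternative, with robust limma and with edgeR. For sucrose against none the count of the 8 genes was 2 with robust limma, 1 with the replicate block (Pu, adjusted p = 0.0156) and 1 with edgeR. Within the RNAi-labelled libraries it was 1 with the replicate block and 1 with edgeR. No share of all genes under the same setting is given beside these counts, so nothing is read from them.

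Over all genes, sucrose against none called 141, but 59 with no trend and 58 with a linear dose. The dose called 0, but 6 with edgeR and 1 with DESeq2. Within the RNAi-labelled libraries 129 were called, but 81 with no filter and 34 with no trend. The difference of responses called 15, but 315 with no filter, 9 with no trend and 4 with DESeq2. The label difference at 0 percent called 215, but 37 with no trend, 374 with robust limma and 103 with DESeq2, and that with sucrose called 1008, but 340 with DESeq2. The cause was not tested.

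Leaving out each library gave 4 to 5 of the 8 genes and 723 to 972 genes in all between labels, 0 to 2 and 87 to 174 for sucrose, 0 to 0 and 0 to 2 for dose, 0 to 1 and 40 to 142 within the RNAi-labelled libraries, 0 to 0 and 5 to 22 for the difference of responses, 1 to 3 and 76 to 220 at 0 percent, and 3 to 5 and 524 to 1006 with sucrose. The counts of the 8 genes between labels, at 0 percent and with sucrose include w and se. As these helped choose the genes, nothing is read from those counts. The tests at 0 percent and of the difference of responses have no value without the control at 0 percent. Over all genes tested, the replicate numbers showed little pairing of the libraries (6 correlations between concentrations from -0.11 to 0.14). Single genes could differ from this. In Punch the second RNAi-labelled library lay above the first at each concentration. Depth limits w, with 4 to 19 reads per control library, and cn, with 4 reads in all.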
